A study of Caenorhabditis elegans with 12 samples.

Results

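Of the 263 distinct mature miRNA names counted in whole *C. elegans*, 64 belong to miRNAs with a registry number of 1000 or above. These names were taken by number alone, leaving out miR-1820, miR-1829 and miR-1834 and their variants (7 names), and are called the high-numbered miRNAs below. Where a name had more than 1 entry, the entry with the higher total was kept. The other 199 names, those 7 included, are the rest of the table. All worms were of the N2 wild-type strain, placed on plates at the L4 stage and collected whole after 5 d at 20 °C. Nar + Glu worms received 25 μM naringin (Nar), a citrus flavonoid glycoside, with 0.1% DMSO and 2% glucose. DMSO + Glu worms received 0.1% DMSO and 2% glucose, Glu worms 2% glucose alone, and Control worms none of these. Each group had 3 libraries. Progeny were removed daily, but adults carry embryos, so whole-worm RNA mixes many cell types. The labels do not say whether the 3 libraries came from separate cultures, so every p-value measures the spread between these samples only.

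A miRNA is cut from the stem of an RNA hairpin, and the strand from the 5′ side (5p) or the 3′ side (3p) is loaded into an Argonaute protein that it guides to target mRNAs. Most hairpins are released from a long transcript by the enzyme Drosha and then trimmed by Dicer. A mirtron is an exception, since its hairpin is a whole short intron that the splicing machinery frees, without Drosha. Registry numbers follow the order of entry, so high numbers mark miRNAs found late, mostly by deep sequencing, and the functions of most of them in the worm are not established. Host genes are therefore given below as positions, not as roles of the miRNAs.

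The 64 names came from 54 precursors, and all 54 were found in the WBcel235 annotation, as 57 gene copies. They were spread over the genome, with 8 copies on chromosome I, 15 on II, 7 on III, 10 on IV, 4 on V and 13 on X. Of the 57 copies, 26 lay on the same strand as a protein-coding gene, 23 of them in an intron, 3 lay antisense to one, and 28 overlapped none. A further miRNA gene lay within 1000 bases of 12 copies. The most abundant precursor, miR-4813, is annotated on chromosome III from 4571640 to 4571716 on the plus strand, in the 3′ UTR of idhg-1, which encodes a subunit of the isocitrate dehydrogenase of the citric acid cycle. The precursor of miR-5592 has overlapping copies on opposite strands of chromosome X, from 13759245 to 13759308 on the minus strand and from 13759247 to 13759310 on the plus strand. They lie in an intron of aakb-1, a gene for a beta subunit of the energy sensor AMPK.

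The splice sites set apart a small group with the layout of mirtrons. In 10 gene copies of 9 precursors, the annotated hairpin and its host intron had the same first and last base, and these introns were 52 to 70 bases long. The 9 precursors were miR-1018, miR-1020, miR-2220, miR-4807, miR-4808, miR-4816, miR-4920, miR-4922 and miR-4926, and miR-1018 and miR-1020 are known as mirtrons. Of them, miR-1018, miR-2220, miR-4807 and miR-4808 fill separate introns of 1 noncoding RNA gene on chromosome X, Y59E1B.1. Another 21 precursors lay within a longer same-strand intron of 222 to 6984 bases in at least 1 transcript. The median level over the 12 libraries was 4.00 CPM (range 0.802 to 13.8) for the 10 names whose hairpin fills its intron, 1.84 CPM (0.714 to 112) for the 29 names from longer introns and 3.80 CPM (0.827 to 364) for the other 25 names. The 3 ranges overlapped, and no test was made.

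Levels here are CPM values, each count set against the library total, after edgeR's TMM method had scaled the libraries to one another from the bulk of their miRNAs. The libraries held 2640879 to 3141140 counts in Nar + Glu, 3267311 to 3849726 in DMSO + Glu, 3033268 to 4029351 in Glu and 4990586 to 5868806 in Control. At these totals 3 counts, the upper limit that a count of 0 allows, corresponded to 0.51 to 1.1 CPM before TMM. Such limits cover counting error only, because the reads carry no molecular identifiers. Replicates differed by more than counting noise over the whole table, with chi-square values of 18.7 to 667 per degree of freedom. Over the high-numbered miRNAs alone this value was 0.850 to 6.43. It was lowest, and close to counting noise, for DMSO + Glu replicates 2 and 3. The highest values were those of Nar + Glu replicate 3 against replicate 2 (6.43) and against replicate 1 (5.05). Such a value grows with the counts, so the lower range of these scarce miRNAs does not show closer replicates.

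The high-numbered miRNAs were scarce, and most were still counted in every library. Their median level over the 12 libraries was 3.16 CPM, against 66.5 CPM for the rest of the table. Of the 100 scarcest names, 49 were high-numbered, and only 8 high-numbered names ranked in the upper part of the table above its middle. The highest of them, miR-4813-5p, ranked at 63 of 263. By number, the median level was 5.99 CPM for the 14 names in the 1000s, 3.14 CPM for the 8 in the 2000s, 2.30 CPM for the 18 in the 4000s, 1.15 CPM for the 12 in the 5000s and 3.02 CPM for the 12 in the 8000s. Each block spanned a wide range, from 0.714 to 112 CPM in the 5000 block, for example, and the ranges of the 5 blocks overlapped.

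**Figure D1:**
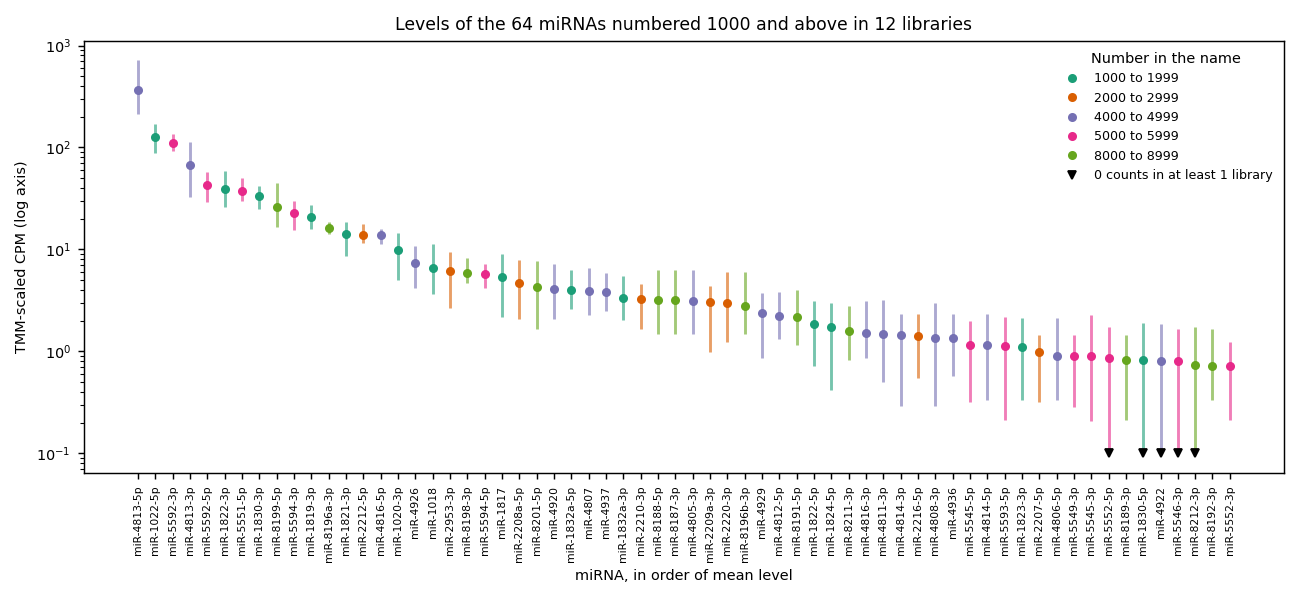
Level of each of the 64 high-numbered miRNAs in TMM-scaled CPM on a log axis, with the mean over 12 libraries as a point, the lowest to highest library as a line and the block of registry numbers as the colour. Black triangles at the foot mark the 5 names with 0 counts in at least 1 library, and the means run from 0.714 to 364 CPM.

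A few names held most of the counts. The 8 with the highest mean level were miR-4813-5p (364 CPM), miR-1022-5p (127 CPM), miR-5592-3p (112 CPM), miR-4813-3p (67.7 CPM), miR-5592-5p (42.6 CPM), miR-1822-3p (38.8 CPM), miR-5551-5p (37.8 CPM) and miR-1830-3p (33.4 CPM). Together they took 71.1% to 81.9% of the counts of the 64 names in a library, and the arms of miR-4813 alone took 29.5% to 55.7%. Detection fell off below them. In all 12 libraries 20 of the 64 names had at least 10 counts, whereas 18 had fewer than 10 in every library. Of the other 199 names, 170 had at least 10 counts throughout.

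Still, 59 of the 64 names were counted at least once in every library, and none was at 0 in a whole group. The 5 exceptions were miR-1830-5p, miR-4922, miR-5546-3p, miR-5552-5p and miR-8212-3p. Of these miR-4922 had 5, 2 and 1 in Nar + Glu, 3, 2 and 3 in DMSO + Glu, 0, 0 and 1 in Glu, and 9, 8 and 7 in Control. Glu was thus lowest and Control highest with no overlap between them. These counts were below the filter used for the tests. Without that filter miR-4922 had an edgeR quasi-likelihood adjusted p of 0.00494 (Benjamini-Hochberg) for Glu against Control, on counts at which a fitted fold change depends on the prior count. Its precursor has 2 gene copies on chromosome V, each filling an intron of a pseudogene, and its entry stood in the table more than once with equal counts.

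How many high-numbered miRNAs were seen depended on depth. As deposited, 33 to 37 names reached 10 counts in Nar + Glu libraries, 30 to 36 in DMSO + Glu, 28 to 34 in Glu and 32 to 40 in Control. After every library was thinned at random to 2640879 counts, the smallest total, 32 to 35 names reached 10 counts in Nar + Glu, 26 to 29 in DMSO + Glu, 23 to 27 in Glu and 23 to 26 in Control. Control, the deepest group, held the libraries with the most such names as deposited but not after thinning. After thinning, all 3 Nar + Glu libraries lay above the other 9. As deposited, the median count of the rest of the table was also higher in Nar + Glu than in DMSO + Glu, despite smaller totals. It was 226 to 305 in Nar + Glu libraries and 197 to 202 in DMSO + Glu. In Glu it was 201 to 205, and in the deeper Control libraries 260 to 332. The rest of the table was not compared after thinning, so whether the thinned pattern is particular to the high-numbered names was not tested. At equal depth at least 1 count was still found for 58 to 64 of the 64 names.

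**Figure D2:**
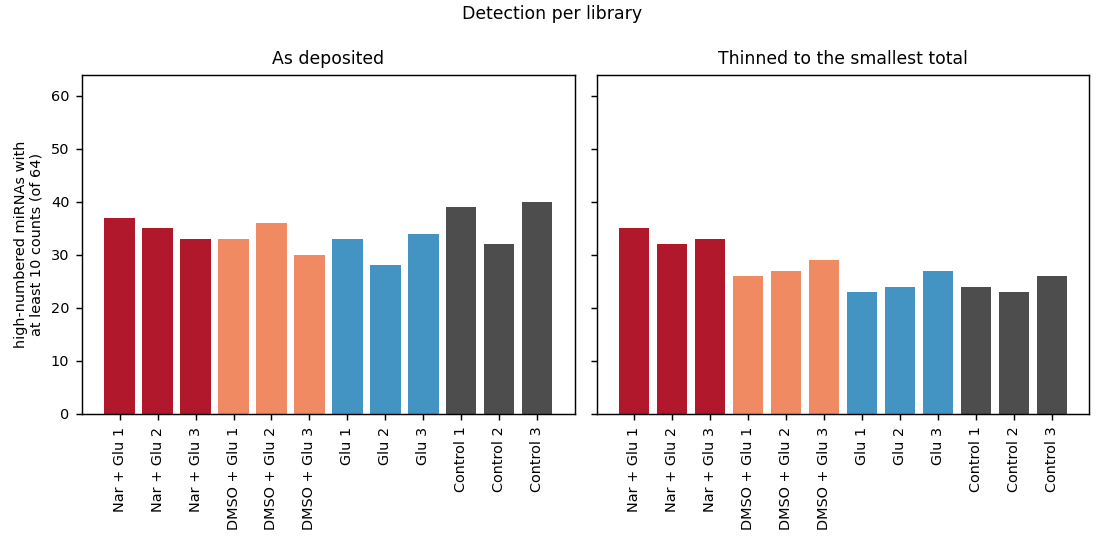
Number of high-numbered miRNAs, of 64, with at least 10 counts in each library as deposited (left) and after thinning to 2640879 counts (right), with bars coloured by group. After thinning the 3 Nar + Glu bars stand at 32 to 35 and the other 9 at 23 to 29.

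The share of all counts taken by the 64 names followed the same pattern. It was 0.145% to 0.191% in Nar + Glu, 0.0805% to 0.111% in DMSO + Glu, 0.0706% to 0.102% in Glu and 0.0775% to 0.101% in Control. Leaving out miR-4813, it was 0.0845% to 0.0878% in Nar + Glu, 0.0568% to 0.0713% in DMSO + Glu, 0.0488% to 0.0663% in Glu and 0.0505% to 0.0597% in Control, so Nar + Glu lay above the other groups with and without miR-4813. A share of counts moves with every abundant miRNA. The muscle miRNA miR-1-3p, the most abundant in the table, had a TMM-scaled level of 220040 to 295403 CPM in Nar + Glu, 399218 to 429845 CPM in DMSO + Glu, 403924 to 561452 CPM in Glu and 393217 to 575596 CPM in Control. Its part in the higher share of the high-numbered names was not tested. The TMM factors, by which a library total is multiplied, were 1.17 to 1.31 in Nar + Glu, 0.895 to 1.00 in DMSO + Glu, 0.770 to 0.991 in Glu and 0.837 to 0.969 in Control, and so lowered the Nar + Glu values. On the TMM scale the 64 names summed to 1102 to 1512 CPM in Nar + Glu and 900 to 1112 CPM in DMSO + Glu, which overlapped.

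The first comparison asked what Nar changed under high glucose, with the DMSO + Glu worms as its solvent control. The clearest differences were in miR-4813, both arms of which rose with Nar, and in miR-8199-5p. Among the high-numbered miRNAs, 36 of 64 had enough counts to be tested and 28 had not, and a scarce miRNA could pass this filter through the group in which it was high. Past the study's thresholds, an absolute log2FC over 0.585 and an unadjusted p under 0.05, were 6 of the 36, where 13.2% of all 219 miRNAs tested passed. Of the 6, 5 were higher with Nar, against 8.68% of all miRNAs, and 1 was lower, against 4.57%. With an adjusted p under 0.05 (edgeR quasi-likelihood test, Benjamini-Hochberg over the 219) there were 3 of 36, against a background of 21.5%, and all 3 were higher, against 9.59%. The groups did not overlap in 11 of 36, where the background was 36.5%. The median log2FC was -0.01 over the 36 and -0.06 over the 219.

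The 5p arm of miR-4813 had 2472, 2881 and 1167 counts in Nar + Glu, 727, 1261 and 1075 in DMSO + Glu, 666, 710 and 1054 in Glu, and 1226, 1382 and 2351 in Control. On the TMM scale these were 577 ± 208, 301 ± 79.2, 253 ± 49.8 and 324 ± 91.2 CPM (SD, n = 3 each), in the same order. Nar + Glu replicates 1 and 2 were high, while replicate 3, at 337 CPM, lay among the DMSO + Glu libraries, the highest of which was at 361 CPM. With Nar its log2FC was 0.88 ± 0.22 (SE), with an adjusted p of 0.0141 in the edgeR quasi-likelihood test, and all 16 alternatives kept it past the study's thresholds. The adjusted p did not hold in 5 of them, at 0.116 without DMSO + Glu replicate 1, 0.0533 without DMSO + Glu replicate 3, 0.0659 without Nar + Glu replicate 1, 0.0703 with the replicate number as a block and 0.0729 with DESeq2 in place of edgeR.

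The 3p arm of miR-4813 had fewer counts and tighter replicates. It had 392, 460 and 330 counts in Nar + Glu, 188, 252 and 226 in DMSO + Glu, 211, 218 and 186 in Glu, and 162, 154 and 212 in Control. In CPM the group means were 106 ± 9.56 in Nar + Glu, 65.4 ± 9.46 in DMSO + Glu, 65.1 ± 9.31 in Glu and 34.8 ± 3.25 in Control (SD, n = 3 each). All 3 Nar + Glu libraries were above all 3 DMSO + Glu libraries, and these and the Glu libraries were above all of Control. With Nar its log2FC was 0.63 ± 0.14 (SE), adjusted p = 0.0048 by edgeR's quasi-likelihood test, and without DMSO + Glu replicate 1 it was 0.53, below the study's fold threshold but with an adjusted p of 0.0393.

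The third miRNA with an adjusted p under 0.05 was miR-8199-5p, whose annotated gene spans 778 bases of chromosome II. Its counts were 155, 179 and 99 in Nar + Glu and 88, 81 and 86 in DMSO + Glu, and its levels were 38.5 ± 8.64 and 25.0 ± 1.63 CPM in these groups (SD, n = 3 each). The groups did not overlap, but Nar + Glu replicate 3 was much closer to DMSO + Glu than the other 2 libraries. The log2FC was 0.56 ± 0.17 (SE) with an adjusted p of 0.0318 (edgeR quasi-likelihood test), short of the study's fold threshold, and the adjusted p was above 0.05 in 7 of 16 alternative analyses, at most 0.0973. These included leaving out Nar + Glu replicate 1, Nar + Glu replicate 2 or any of the 3 DMSO + Glu libraries. The other groups had 52, 52 and 83 counts in Glu, and 115, 90 and 129 in Control.

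Another 4 names passed the study's thresholds without an adjusted p under 0.05, each on few counts. The most regular was miR-4805-3p, with 23, 17 and 17 counts in Nar + Glu and 12, 7 and 9 in DMSO + Glu, and a log2FC of 0.83 ± 0.33 (SE). Next, miR-4920 from an intron of sph-1 had 26, 29 and 16 counts in Nar + Glu and 11, 14 and 13 in DMSO + Glu, and a log2FC of 0.70 ± 0.29. In both, every Nar + Glu library was above every DMSO + Glu library in counts and in CPM.

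The remaining higher one, miR-8196b-3p, had 22, 16 and 10 counts in Nar + Glu and 7, 10 and 5 in DMSO + Glu, with a log2FC of 0.92 ± 0.39 (SE). The only one lower with Nar was miR-2953-3p, with 17, 14 and 24 counts in Nar + Glu and 29, 18 and 31 in DMSO + Glu, with a log2FC of -0.69 ± 0.32 and overlapping groups. Their adjusted p-values and those of miR-4805-3p and miR-4920 ran from 0.0939 to 0.142 in the edgeR quasi-likelihood test. Each of the 4 lost its call when at least 1 library was left out, and miR-2953-3p lost it in 9 of 15 alternatives. Both miR-8196b-3p and miR-4805-3p reached the filter's level in Nar + Glu libraries only. They entered the test through the group in which they were high, so the filter favoured their direction.

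**Figure D3:**
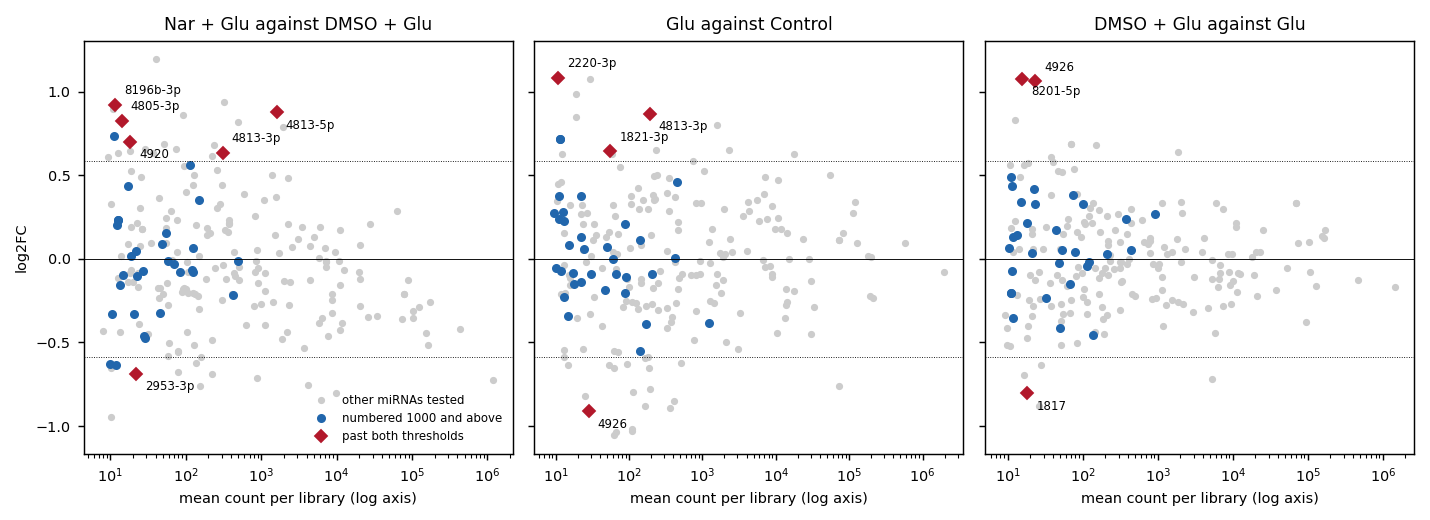
log2FC against the mean count per library (log axis) for every miRNA tested in the 3 comparisons, with the high-numbered miRNAs in blue, those past both study thresholds as red diamonds labelled by number, and the rest in grey. Dotted lines mark log2FC of 0.585 in both directions, and most red diamonds lie at low counts, except the arms of miR-4813.

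The counts in each direction depended on the scaling. With total counts alone the median log2FC was 0.42 over the high-numbered miRNAs tested and 0.37 over all miRNAs tested, 10 of 36 high-numbered names passed the thresholds, all higher with Nar, where 29.7% of all 219 miRNAs did so, and 13 of 36 had an adjusted p under 0.05, all higher, where 40.6% of all did (edgeR quasi-likelihood test). The sign of the log2FC differed between the scalings for 14 of the 36. Leaving out DMSO + Glu replicate 1 or replicate 3 reduced the 6 names past the thresholds to 3. With an adjusted p under 0.05 there was 1 name without Nar + Glu replicate 1, DMSO + Glu replicate 1 or DMSO + Glu replicate 3, and there were 6 without Nar + Glu replicate 3.

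Several markers of other cells and stages also moved in the same libraries. The 3p arms of the miR-35 family, which are embryonic and germline miRNAs, were all listed (8 of 8) and summed to 98962 to 124162 CPM in Nar + Glu and 122848 to 168324 CPM in DMSO + Glu. The stage-related let-7-5p was at 767 to 1083 CPM in Nar + Glu and 1389 to 1566 CPM in DMSO + Glu, and lin-4-5p at 426 to 474 CPM in Nar + Glu and 550 to 666 CPM in DMSO + Glu. The neuronal miR-124-3p was at 7.69 to 12.6 CPM in Nar + Glu and 4.01 to 7.26 CPM in DMSO + Glu. None was at 0, and the sums of the miR-35 family overlapped between the groups. In every Nar + Glu library miR-1-3p, let-7-5p and lin-4-5p were lower, and miR-124-3p higher, than in every DMSO + Glu library. The part of these markers in the differences of the high-numbered miRNAs was not tested. In whole worms fewer cells of a type cannot be told apart from less RNA per cell.

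**Figure D4:**
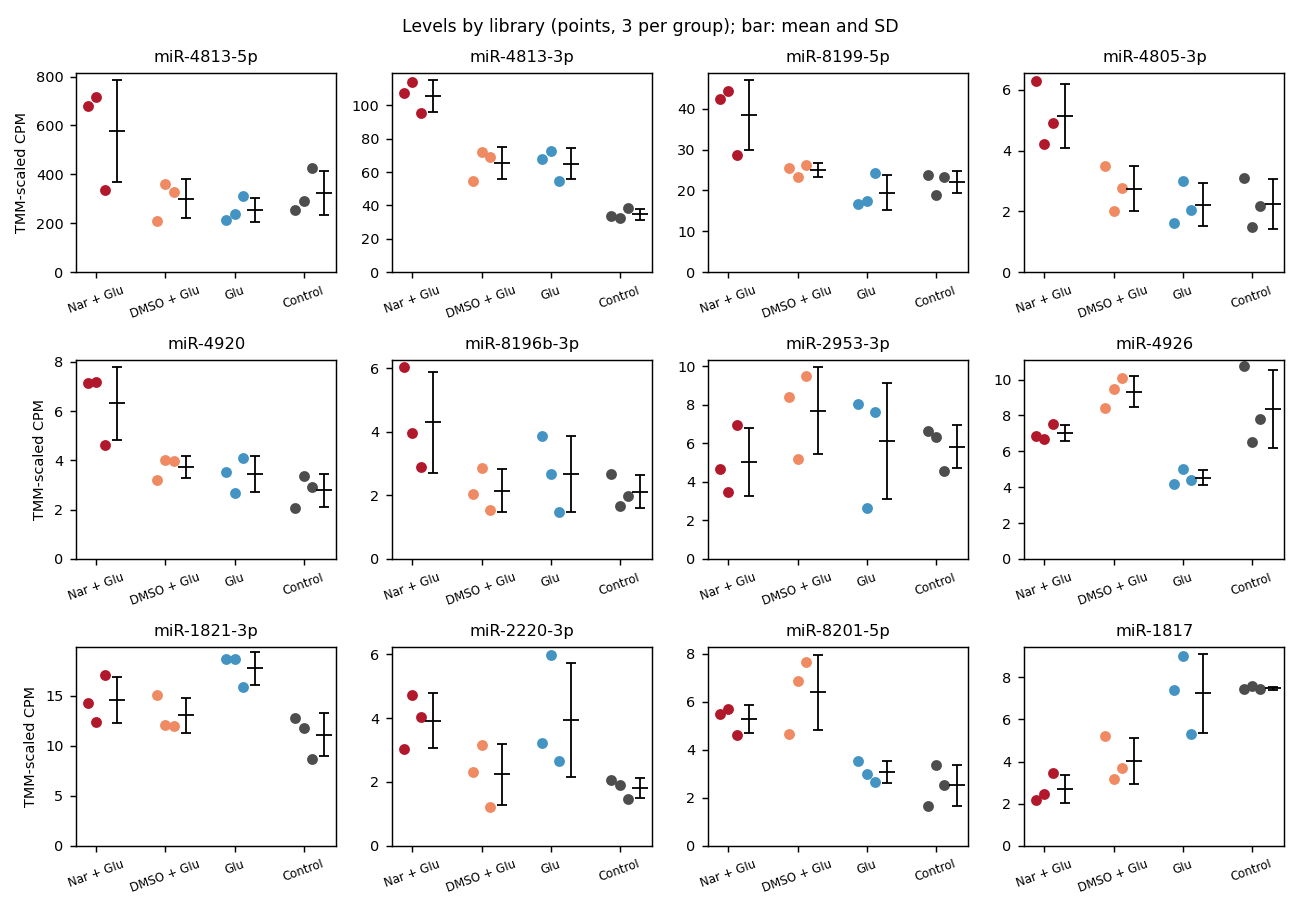
TMM-scaled CPM of the 12 high-numbered miRNAs called in at least 1 comparison, with a point for each library (3 per group), and the mean and SD as a bar. The arms of miR-4813 are highest in Nar + Glu, at 577 and 106 CPM on average, and miR-4926 is lowest in Glu.

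The second comparison, Glu against Control, asked what glucose did alone. Here miR-4813-3p rose and its 5p arm did not, and miR-4926 was lower. Of the 64 names 37 were tested and 27 were not. Past the study's thresholds were 4 of 37, against 13.9% of the 223 miRNAs tested. Of the 4, 3 were higher in Glu, against 5.38% of all miRNAs, and 1 was lower, against 8.52%. As before, a scarce miRNA could pass the filter through the group in which it was high. Among the 3 higher names, miR-2220-3p reached the filter's level in Glu libraries only, so the filter favoured its direction. An adjusted p under 0.05 was found for 1 of 37, which was higher, against 8.52% in either direction and 3.59% higher. The groups did not overlap in 10 of 37, against 30.9%, or in 9 of 36 when miR-8187-3p and miR-8188-5p, which had identical counts, are taken as 1 measurement. The median log2FC was 0.01 over the 37 and -0.00 over the 223, both near 0.

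The log2FC of miR-4813-3p was 0.87 ± 0.19 (SE) in Glu against Control, with an adjusted p of 0.00469 in the edgeR quasi-likelihood test, and the 0.0609 reached without Glu replicate 2 was the highest value over the alternatives. Its raw counts, given above, overlapped between Glu and the deeper Control libraries, and its CPM values did not. For miR-4813-5p the log2FC was -0.38 ± 0.19 with an adjusted p of 0.202, and its groups overlapped.

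The one lower name was miR-4926, whose hairpin of 52 bases fills an intron of ari-1.3 on chromosome I. It had 13, 15 and 15 counts in Glu and 52, 31 and 43 in Control, or 4.53 ± 0.414 and 8.36 ± 2.17 CPM (SD, n = 3 each). The log2FC was -0.91 ± 0.30 (SE), and its edgeR adjusted p of 0.0515 was just above 0.05. It stayed past the study's thresholds in all 14 alternatives in which it could be tested.

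The other 2 names past the thresholds were higher in Glu. The level of miR-1821-3p was 17.7 ± 1.62 CPM in Glu and 11.1 ± 2.13 CPM in Control (SD, n = 3 each), from 58, 56 and 54 counts in Glu and 62, 56 and 48 in Control, and its log2FC was 0.64 ± 0.24 (SE). In miR-2220-3p, from an intron of Y59E1B.1, 10, 18 and 9 counts in Glu stood against 10, 9 and 8 in Control, with a log2FC of 1.08 ± 0.40. In both, the raw counts of the groups overlapped and the Control libraries were deeper, so that in CPM every Glu library was above every Control library. Without Control replicate 3 both lost their call, which left 2 names past the thresholds. Without Glu replicate 2, the library with 18 counts, miR-2220-3p lost its call as well. The adjusted p-values of miR-1821-3p and miR-2220-3p were 0.079 and 0.084 in the edgeR quasi-likelihood test.

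Just outside the calls, miR-1022-5p had 341, 364 and 580 counts in Glu and 482, 459 and 490 in Control, a log2FC of 0.46 ± 0.19 (SE) and an unadjusted p of 0.0196 in the edgeR fit across all miRNAs. In the same fit miR-1830-3p, from an intron of paic-1, had 91, 81 and 87 counts in Glu and 171, 199 and 220 in Control, a log2FC of -0.55 ± 0.20 and an unadjusted p of 0.00923. Both lay under the fold threshold, neither had an adjusted p under 0.05, and in CPM the Glu and Control libraries did not overlap in either. In raw counts, 2 of the 3 Glu libraries of miR-1022-5p lay below the deeper Control libraries.

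The third comparison, DMSO + Glu against Glu, asked what the solvent did. No high-numbered miRNA had an adjusted p under 0.05 with edgeR's quasi-likelihood test, nor had any of the 215 miRNAs tested (0.0%), and DESeq2 also called 0 of the high-numbered names. Of the 64 names 33 were tested and 31 were not. An unadjusted p under 0.05 was found in 5 of 33, against 10.2% of all miRNAs tested, 3 of 33 passed the study's thresholds, against 6.05%, and groups did not overlap in 7 of 33, against 18.1%. The median log2FC was 0.05 over the 33 and -0.02 over the 215.

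In CPM the 3 names past the thresholds were separate between the groups, while the raw counts of miR-1817 met at 18. For miR-4926 the counts were 29, 33 and 33 in DMSO + Glu and 13, 15 and 15 in Glu, with a log2FC of 1.06 ± 0.21 (SE). For miR-8201-5p, from an intron of the linker histone gene hil-2, they were 16, 24 and 25 in DMSO + Glu and 11, 9 and 9 in Glu, with a log2FC of 1.08 ± 0.28. For miR-1817 they were 18, 11 and 12 in DMSO + Glu and 23, 27 and 18 in Glu, with a log2FC of -0.80 ± 0.29. The adjusted p-values were 0.099, 0.279 and 0.302 in this order (edgeR quasi-likelihood test, Benjamini-Hochberg). Both miR-4926 and miR-8201-5p passed in every alternative run for them, and miR-1817 failed in 4 of 14. The filter's level was reached by miR-8201-5p in all 3 DMSO + Glu libraries but not in all 3 Glu libraries. It therefore entered the test through the group in which it was high. Without Glu replicate 3, 6 names passed the thresholds. The same 3 Glu libraries entered this comparison and the one with Control, so the low miR-4926 in Glu is 1 set of measurements seen from both sides.

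Over all 4 groups at once, 37 high-numbered miRNAs could be tested, and 11 differed with an adjusted p under 0.05 (edgeR quasi-likelihood F-test), against 39.6% of all 225 miRNAs tested. Here too a scarce miRNA could pass the filter through a group in which it was high. The 11 were miR-4813-3p, miR-1817, miR-8199-5p, miR-4813-5p, miR-8201-5p, miR-4920, miR-4805-3p, miR-4926, miR-5592-5p, miR-1022-5p and miR-2220-3p. The first 5, in the order of their p-values, had adjusted p-values of 7.7e-06, 0.00137, 0.00202, 0.00273 and 0.00423 in this edgeR test, and all 5 kept an adjusted p under 0.05 in every alternative. They did not share a pattern.

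In miR-1817 the level was 2.71 ± 0.667 CPM in Nar + Glu, 4.02 ± 1.08 CPM in DMSO + Glu, 7.23 ± 1.85 CPM in Glu and 7.48 ± 0.0700 CPM in Control (SD, n = 3 each), from 8, 10 and 12 counts in Nar + Glu and 36, 36 and 41 in Control. The groups without DMSO were thus higher than those with it, and in CPM every library without DMSO was above every library with it. The margin was narrow, with Glu replicate 3 at 5.29 CPM and DMSO + Glu replicate 1 at 5.22 CPM, each from 18 counts. In miR-8201-5p the order was the other way, with 5.27 ± 0.574 CPM in Nar + Glu, 6.39 ± 1.57 CPM in DMSO + Glu, 3.06 ± 0.454 CPM in Glu and 2.52 ± 0.854 CPM in Control. Control and Glu did not differ beyond their spread in either miRNA, with log2FC of Glu against Control of -0.09 ± 0.28 (SE) for miR-1817 and 0.24 ± 0.38 for miR-8201-5p.

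At the other end, the steadiest of the 20 names with at least 10 counts in every library was miR-8196a-3p. Its highest library was 1.31 times its lowest, and its group means were 16.8, 16.2, 15.9 and 16.5 CPM in Nar + Glu, DMSO + Glu, Glu and Control. The widest ranges among those 20 were those of the arms of miR-4813, at 3.53 times for 3p and 3.39 times for 5p. For the other abundant names, miR-5592-3p had a ratio of 1.47, miR-1830-3p 1.68, miR-5551-5p 1.69, miR-1022-5p 1.92, miR-5592-5p 1.97 and miR-1822-3p 2.28.

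Both arms were listed for 10 precursors, and the ratio of arms within a library does not depend on scaling. As the log2 of 5p to 3p counts (pseudocount 0.5), the mean over 12 libraries was 3.17 for miR-4816 and 2.42 for miR-4813, whose 5p arm was the higher in all 12 libraries. It was -5.54 for miR-1830, -4.39 for miR-1822, -1.97 for miR-5594 and -1.41 for miR-5592, whose 3p arm was the higher in all 12. The largest ratios also rested on a scarce arm, with mean counts of 3.25 for miR-1830-5p, 6.83 for miR-1822-5p and 5.67 for miR-4816-3p. With a pseudocount of 1 the mean for miR-1830 was -5.20. The arms were near equal in miR-1832a (0.26), miR-4814 (-0.36), miR-5545 (0.37) and miR-5552 (0.17), the last 3 on mean counts of 5.50 or fewer per arm.

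In miR-4813 the arms did not move in step. The log2 ratio of 5p to 3p was 2.66, 2.65 and 1.82 in Nar + Glu, 1.95, 2.32 and 2.25 in DMSO + Glu, 1.66, 1.70 and 2.50 in Glu, and 2.92, 3.16 and 3.47 in Control. All 9 libraries of worms on glucose were below all 3 of Control, and the 3 glucose groups overlapped one another. This is a description of 1 precursor picked because both of its arms were called, and the difference was not tested.

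The arms of miR-5592 had ratios of -1.62, -1.51 and -1.95 in Nar + Glu, -1.81, -1.74 and -1.90 in DMSO + Glu, -2.01, -0.68 and -0.70 in Glu, and -1.07, -0.95 and -1.01 in Control. Nar + Glu and DMSO + Glu were below Control throughout, whereas Glu held 1 library below and 2 above it. The 5p arm had an unadjusted p of 0.0442 in DMSO + Glu against Glu (edgeR quasi-likelihood test across all miRNAs, log2FC -0.46), with 122, 119 and 117 counts in DMSO + Glu and 104, 173 and 192 in Glu. Its repeated entries had 1991 and 1904 counts over the 12 libraries, and the entry with 1991 was used for these ratios. In Glu the other entry had 101, 169 and 184 counts.

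**Figure D5:**
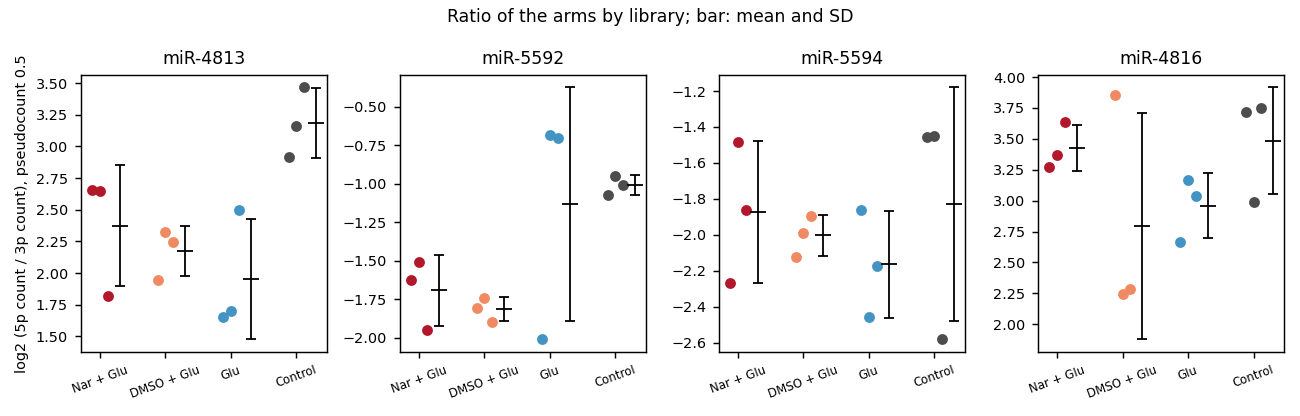
log2 ratio of 5p to 3p counts (pseudocount 0.5) for 4 precursors in each library, 3 points per group, with the mean and SD as a bar and a separate scale in each panel. In miR-4813 the Control libraries (2.92 to 3.47) lie above all others (1.66 to 2.66), and in miR-4816 Nar + Glu lies above Glu while the other pairs of groups overlap. The 3p arm of miR-4816 had a mean count of only 5.67.

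Some counts cannot be assigned to 1 gene. The names miR-8187-3p and miR-8188-5p had the same count in every library, 143 in total, although their genes are annotated on chromosomes I and II, so they are 1 measurement listed under separate names, and both names entered every count of names tested. Their counts were 23, 9 and 11 in Nar + Glu, 14, 10 and 8 in DMSO + Glu, 15, 10 and 10 in Glu, and 13, 7 and 13 in Control. Entries were also repeated for miR-5592-3p, miR-5593-5p and miR-4922, with equal counts, and each of these precursors has 2 annotated copies. Each repeated name was counted once.

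The names too scarce for the test over the 4 groups, 27 of the 64, are given in sum. Together they held 98 to 134 counts in a Nar + Glu library, 121 to 128 in DMSO + Glu, 94 to 116 in Glu and 133 to 176 in Control. On the TMM scale these sums were 31.8 ± 3.10 CPM in Nar + Glu, 36.8 ± 2.14 CPM in DMSO + Glu, 32.8 ± 1.43 CPM in Glu and 29.2 ± 2.40 CPM in Control (SD, n = 3 each). All 3 DMSO + Glu libraries lay above the other 9 on this scale, whose groups overlapped. The margin was narrow, with DMSO + Glu replicate 1 at 35.1 CPM from 121 counts and Glu replicate 3 at 34.1 CPM from 116 counts.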

How the data were processed

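Small RNA libraries of 12 whole-worm samples, 3 for each of 4 groups, were analysed. The authors filtered reads by base-call quality, removed adapters with Cutadapt 1.14, quantified miRNAs with mirdeep2 and deposited raw counts per mature miRNA, not normalized. The labels name the WBcel235 build, and the miRBase release was not given in the sources used here. The labels place poly(A) enrichment before the small RNA kit, but the paper describes it for mRNA libraries only, so whether it was applied here is uncertain. Groups came from the labels, and 0 count columns were left unmapped.

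Libraries were scaled with TMM and tested with edgeR 4.0.16 (R 4.3.3), with filterByExpr (minimum count 10, minimum total 15), on the 6 libraries compared or on all 12. P-values were adjusted by the Benjamini-Hochberg method over all miRNAs tested. Standard errors were derived as the absolute log2FC divided by the square root of the quasi-likelihood F statistic. Thinning used random seed 1, and the code was tested on simulated data. The alternatives included DESeq2 1.42.0. matplotlib 3.10.9 drew the plots.

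The high-numbered miRNAs, lists and tests were chosen with earlier results of these data known. Named were the 8 most abundant, those called in a comparison of 2 groups, the 5 with the smallest p over 4 groups, precursors with both arms listed, repeated or identical entries, and names at 0 in a group. Names at 0 in single libraries, names just outside the calls, the steadiest name and the other names called over 4 groups were added after their values were seen. Seeds were not compared here.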

Additional observations from a re-analysis of the deposited data

How the results depend on the processing

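None of 14 fold changes of called high-numbered miRNAs changed sign, and 167 of 205 alternative values kept their call and 38 lost it. For Nar + Glu against DMSO + Glu, the 6 names past the thresholds became 10 with total counts alone, 3 with DESeq2, 3 with a mean count of at least 100 and 10 with Glu as the reference, and 3 to 7 with 1 library left out. The 3 with an adjusted p under 0.05 became 13 with total counts alone and 5 with Glu as the reference, and 1 to 6 with 1 library left out. For Glu against Control, the 4 past the thresholds became 1 with a mean count of at least 100, and 2 to 6 with 1 library left out. The 1 with an adjusted p under 0.05 became 2 with DESeq2, 2 with no filter, 2 with a mean count of at least 100 and 4 with all 12 libraries in 1 fit, and 0 (without Glu replicate 2) to 4 (without Glu replicate 3) with 1 library left out. For DMSO + Glu against Glu, the 3 past the thresholds became 0 with a mean count of at least 100 and 5 with no fold threshold, and 2 to 6 with 1 library left out, and the 0 with an adjusted p under 0.05 became 0 to 1. The 11 that differed over 4 groups became 20 with total counts alone and 5 with a mean count of at least 100, and 9 to 12 with 1 library left out. A minimum mean count of 100 leaves fewer names to test. The cause of the other shifts was not tested. The median number of names with at least 10 counts was 26.5 at equal depth and 33.5 as deposited. The median SE of the log2FC was 0.26 for the high-numbered miRNAs tested and 0.16 for all miRNAs tested in the Nar comparison.

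Same-numbered replicates had deviations that correlated at -0.236, 0.228 and -0.119 in the Nar comparison, at 0.176, 0.0381 and 0.293 in Glu against Control, and at 0.126, 0.0453 and 0.238 in DMSO + Glu against Glu. Between differently numbered replicates these correlations were -0.236 to 0.331, -0.229 to 0.0615 and -0.315 to 0.218 in the same order of comparisons. In Glu against Control and in DMSO + Glu against Glu, all 3 same-numbered values were above 0. In Glu against Control, 0.176 and 0.293 also exceeded the highest differently numbered value, 0.0615. The labels name no shared batch, and the main tests did not pair the samples. So few values cannot exclude a pairing. With the replicate number as a block, 1 name had an adjusted p under 0.05 in the Nar comparison and 6 in Glu against Control, while the counts past the thresholds were 6, 4 and 3 in the 3 comparisons, as without it.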
